A study of Mus musculus with 4 samples.

Results

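The MYC and MAX network factors described here are 9 genes, Myc, Mycn, Max, Mxd1, Mxd3, Mxd4, Mxi1, Mnt and Mlx. They were taken as every probe set whose annotation names 1 of these symbols and no other gene, which gave 21 of 45037 probe sets that are not array controls, for 9 of the 18193 genes named on the array. RNA was measured on Affymetrix arrays, 1 array per sample, in 2 samples of granulocytic myeloid-derived suppressor cells (G-MDSC, CD11b+Ly6G+Ly6Clow) and 2 of neutrophils. All mice were female C57BL/6, and their age was not given in the sources used here. The G-MDSC came from spleens 3.5 weeks after EL4 lymphoma cells had been placed under the skin, and were selected on beads for Ly6G. The neutrophils were washed from the peritoneum 3 h after the last of 2 casein injections (1.5 ml of 12% casein each, 16 h apart). Cells carrying the macrophage antigen F4/80 were removed from them before selection on Ly6G, and red cells were lysed in both groups. Cell kind, tissue, tumour, casein and sorting steps differed together, so they cannot be told apart. Whether the 2 samples of a kind were taken from different animals is not stated, and each p-value therefore reflects no more than how far these samples differ, possibly for technical reasons.

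MYC is a transcription factor of the basic helix-loop-helix leucine zipper class that binds DNA at E-boxes as a dimer with MAX and switches on genes of cell growth. MAX also pairs with MXD1, MXI1, MXD3, MXD4 and MNT, which bring the SIN3 corepressor to the same sites and oppose MYC, while MLX pairs with the glucose-sensing factors MondoA (Mlxip) and ChREBP (Mlxipl) and with some MXD proteins. In the granulocyte lineage, Myc is known to fall and Mxd1 to rise as dividing precursors mature into neutrophils.

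Of the 9 members, 3 were called higher in G-MDSC by their brightest tested probe set and 0 lower, where 5.17% and 5.55% of all genes tested were. The 3 were Mxi1 (4.38-fold), Mnt (2.38-fold) and Mxd4 (4.52-fold). All 3 are MAX-binding antagonists of MYC, as are the members Mxd1 and Mxd3, which were not called. The Mxd4 difference was 2.18 over all arrays and 1.46 on the log2 scale without neutrophils replicate 2, whose signal was at or below its 40th percentile, and the Mxd4 probe sets disagreed. Myc itself lay at 554 and 720 in G-MDSC and, in neutrophils, 573 and 709. Mxd1 was not called in either direction. Of the 21 probe sets, 18 had a signal above the 40th percentile of their array on at least 2 of 4 arrays and were tested. By limma, on log2(signal + 16) with p-values adjusted over all 28754 probe sets tested, 4 of the 18 were called higher in G-MDSC at an adjusted p of at most 0.05, where 3.72% of all probe sets were. None was called lower, where 4.31% of all were (8.03% in either direction). At an unadjusted p under 0.05 there were 5 higher and 1 lower, and limma without moderation called 0 in either direction. The arrays of the groups did not overlap for 9 probe sets that were higher and 3 that were lower in G-MDSC, where 23.7% and 30.8% of all probe sets did so (54.6% in either direction). Among the higher ones, Mxd3 1422970_at and 1448878_at passed the filter through the G-MDSC arrays alone, so the filter favoured that direction for them. The median difference (G-MDSC minus neutrophils, log2) was 0.25 over the 18 and -0.2 over all probe sets tested. The number called higher was 1 without G-MDSC replicate 1, 2 without G-MDSC replicate 2, 5 without neutrophils replicate 1 and 3 without neutrophils replicate 2.

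**Figure D1:**
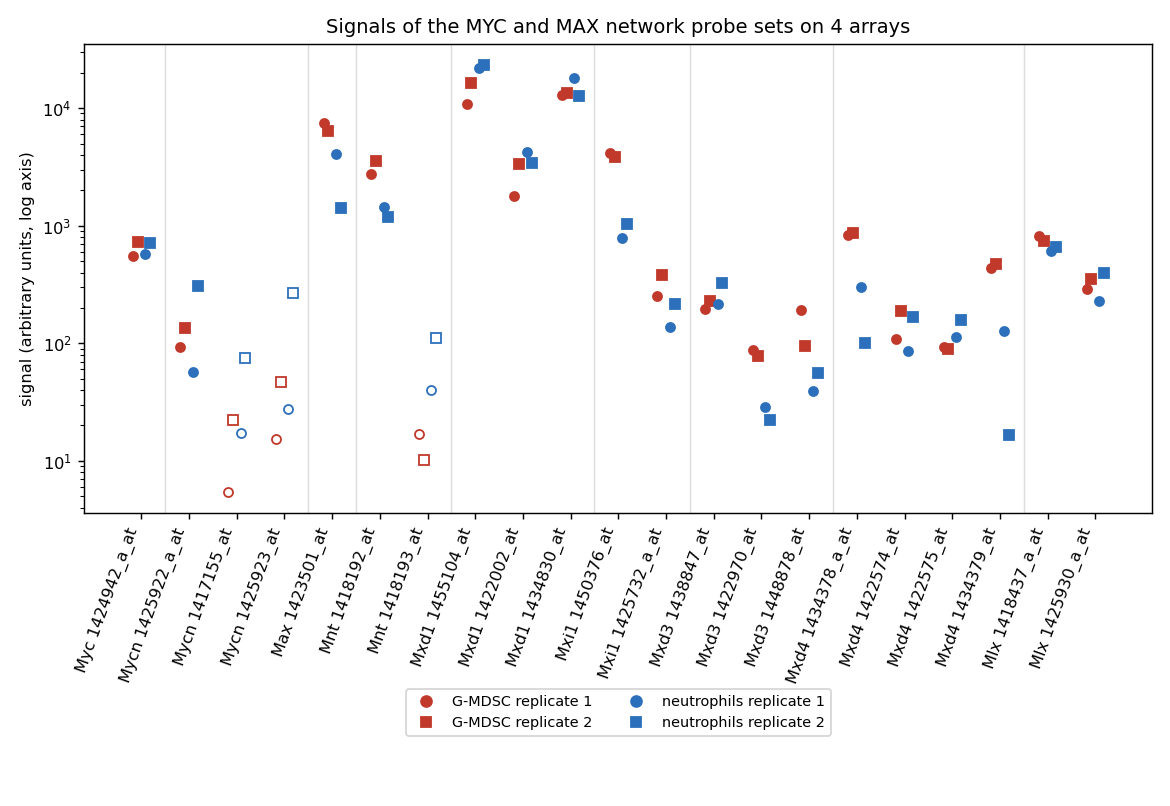
Signals of all 21 member probe sets on a log axis, in arbitrary units, with red symbols for G-MDSC and blue for neutrophils, circles for replicate 1 and squares for replicate 2. Open symbols mark the 3 probe sets that were not tested. The red symbols lie above the blue for Max, for Mnt 1418192_at, for Mlx 1418437_a_at, for both Mxi1 probe sets and for 2 probe sets each of Mxd3 and Mxd4. The blue lie above the red for Mxd1 1455104_at and 1422002_at, for Mxd4 1422575_at and for the untested Mnt 1418193_at. The Myc symbols of the groups overlap. Heights of different probe sets cannot be compared with each other.

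The arrays bear on these values. All had a 2% trimmed mean of 500, and their median signals ran from 75.8 to 83.3 on 3 arrays and reached 178 on neutrophils replicate 2. That array differed from the rest among dim probe sets, its 40th percentile being 133 where the others had 45.7 to 52.6. Across the tested probe sets Pearson's r was 0.953 between the G-MDSC arrays and 0.875 between the neutrophil arrays. Neutrophils replicate 1 correlated as highly with the G-MDSC arrays (0.885 and 0.875), and neutrophils replicate 2 less so (0.766 and 0.803); these values are given as a description since probe sets share their arrays. Centring each array on its median moved the median difference of all probe sets by 0.56, and quantile normalization moved it by 0.27. A difference is relative to the scaling that the authors had applied unless another is named.

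Promoters of 4 members hold the E-box CACGTG, a site bound by MYC-MAX and MXD-MAX dimers, and they are shown because this is the sequence through which the network acts. Signals on their brightest probe sets were higher in G-MDSC without overlap, as were 27.3% of all genes, though Max and Mlx were not called. Mnt 1418193_at, which was not tested, and Mxd4 1422575_at lay the other way without overlap. Mxi1, whose windows lack the E-box, was also higher in G-MDSC without overlap. Any part of the E-box in these differences was not tested. RefSeq windows of 300 bases, 250 before and 50 after the start site, were found for 8 of the 9 members (GRCm38.p6), and were searched for CACGTG, which reads the same on both strands. The E-box was in the windows of 4 of 8 members, in 7.15% of all 32851 windows, and in those of 11.2% of the 10600 tested genes with a window. The 150 bases around it follow, 5′ to 3′ on the gene's strand, in lower case with the E-box in capitals.
Max, chr12:76962219-76962368, minus strand: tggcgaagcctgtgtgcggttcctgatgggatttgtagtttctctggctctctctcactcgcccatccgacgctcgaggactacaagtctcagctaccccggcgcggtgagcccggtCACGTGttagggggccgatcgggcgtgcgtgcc
Mnt, chr11:74830726-74830875, plus strand: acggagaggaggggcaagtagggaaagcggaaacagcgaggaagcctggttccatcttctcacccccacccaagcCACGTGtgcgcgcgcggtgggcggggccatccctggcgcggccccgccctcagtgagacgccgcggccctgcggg
Mxd4, chr5:34187811-34187960, minus strand: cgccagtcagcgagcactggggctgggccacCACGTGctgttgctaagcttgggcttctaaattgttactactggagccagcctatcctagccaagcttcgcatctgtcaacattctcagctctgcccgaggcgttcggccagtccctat
Mlx, chr11:101087140-101087289, plus strand: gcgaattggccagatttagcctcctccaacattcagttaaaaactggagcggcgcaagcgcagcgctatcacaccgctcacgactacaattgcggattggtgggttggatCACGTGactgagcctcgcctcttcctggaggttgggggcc
In Max the E-box spans the annotated start, its first base lying at position -3 from it. In the others the first base lies at -40 (Mlx), -123 (Mnt) and -219 (Mxd4). The letters CACGTG are not in the windows found for Mxd1, Mxd3, Mycn or Mxi1, the last with 3 windows. A match describes the sequence and is no evidence of binding in these cells.

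Myc, the activator of the network, had 1 probe set (1424942_a_at), and its signal was 554 and 720 in G-MDSC and, in neutrophils, 573 and 709. The groups overlapped fully, replicate 1 being the lower array in both. The log2 difference came to -0.01 ± 0.35 (standard error, as for all such values below, n = 2 in each group, limma adjusted p = 0.987). Its 95% interval ran from -0.81 to 0.78, and differences in that range are compatible with these arrays. Larger ones can also miss the threshold, as that of Max did (1.53). For Myc the difference turned to 0.55 with median scaling, where it still missed the threshold (limma adjusted p = 0.709). In bulk RNA, fewer cells of a type and less RNA per cell cannot be told apart, here and below.

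Mycn, a MYC relative of embryonic and neural tissue, was near the low end of the arrays. Its tested probe set (1425922_a_at) read 93.4 and 136 in G-MDSC and, in neutrophils, 57.2 and 305. The neutrophil arrays stood 5.34-fold apart, with both G-MDSC arrays between them. For Mycn the log2 difference was -0.25 ± 0.73 (limma adjusted p = 0.862), or 0.82 without neutrophils replicate 2. The other 2 probe sets were not tested: 1417155_at was at or below the 40th percentile on all 4 arrays (5.47 to 74.3), and 1425923_at was above it on neutrophils replicate 2 alone (266, against 15.3 to 46.9).

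Max, a partner shared by MYC and the MXD proteins, read 7498 and 6331 in G-MDSC and, in neutrophils, 4032 and 1403 on its only probe set (1423501_at). Both G-MDSC arrays were above both neutrophil arrays, but the neutrophil arrays differed 2.87-fold from each other and the G-MDSC arrays 1.18-fold. The log2 difference of 1.53 ± 0.46 missed the threshold (limma adjusted p = 0.0834). It was 0.77 without neutrophils replicate 2 (adjusted p = 0.149) and passed without neutrophils replicate 1, at 2.28 (0.00105), and without G-MDSC replicate 2, at 1.65 (0.0499). With 1 probe set per gene tested it passed as well (0.0341), and likewise with the replicate number as a block (1.3e-05) and with a floor for low signals (0.0186).

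Mnt, a widely expressed MAX partner that represses MYC targets, read 2726 and 3583 in G-MDSC and, in neutrophils, 1434 and 1183 (1418192_at). The groups did not overlap, and within each the arrays agreed to 1.31-fold and 1.21-fold. Mnt was higher in G-MDSC by 1.25 ± 0.32 on the log2 scale, or 2.38-fold (limma adjusted p = 0.0456), close to the threshold. The Mnt call was lost without G-MDSC replicate 1 (1.45, adjusted p = 0.117), without G-MDSC replicate 2 (1.06, 0.399) and with neutrophils replicate 2 left out (1.11, 0.0662), and also with quantile normalization (1.09, 0.0885) and median scaling (1.81, 0.229). Its second probe set (1418193_at) was at or below the 40th percentile on all arrays and was not tested. It read 16.8 and 10.1 in G-MDSC and, in neutrophils, 40.4 and 111, so it pointed the other way without overlap.

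Mxd1, the MXD member tied to granulocyte maturation, was well above the low end of every array on 3 probe sets. On 1455104_at the signal was 10944 and 16468 in G-MDSC and, in neutrophils, 21964 and 23121, so both neutrophil arrays were above both G-MDSC arrays. The difference of -0.75 ± 0.33 missed the threshold over all probe sets (limma adjusted p = 0.214; unadjusted p = 0.0479; 95% interval -1.48 to -0.01). On 1422002_at the values were 1795 and 3373 against 4271 and 3394, the nearest arrays of the groups differing by little (-0.63 ± 0.37, adjusted p = 0.355). On 1434830_at they were 12875 and 13544 against 17951 and 12715, which overlap (-0.19 ± 0.31, adjusted p = 0.744). All 3 estimates had the same sign, yet 1434830_at turned to 0.36 with median scaling and to 0.05 without neutrophils replicate 1. Quantile normalization together with the replicate block called 1455104_at and 1422002_at lower in G-MDSC, and no other setting called any Mxd1 probe set.

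Mxi1, a MAX partner also known as MXD2, gave the clearest difference of the family. Its probe set 1450376_at read 4149 and 3855 in G-MDSC and, in neutrophils, 786 and 1032. The arrays of a group agreed to 1.08-fold and 1.31-fold, and the groups were far apart by comparison. Mxi1 was higher in G-MDSC by 2.13 ± 0.31 on the log2 scale, or 4.38-fold (limma adjusted p = 0.00572; 95% interval 1.42 to 2.84). It stayed past the threshold with each array left out in turn, with differences of 1.94 to 2.32, and with quantile normalization (1.99, adjusted p = 0.0245). It missed with median scaling (2.69, adjusted p = 0.0727) and without the intensity trend in the variance (0.0764). The other probe set, 1425732_a_at, read 251 and 381 against 138 and 216, higher in G-MDSC without overlap, but by 0.78 ± 0.45 (adjusted p = 0.346). The median of both was 1.46.

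**Figure D2:**
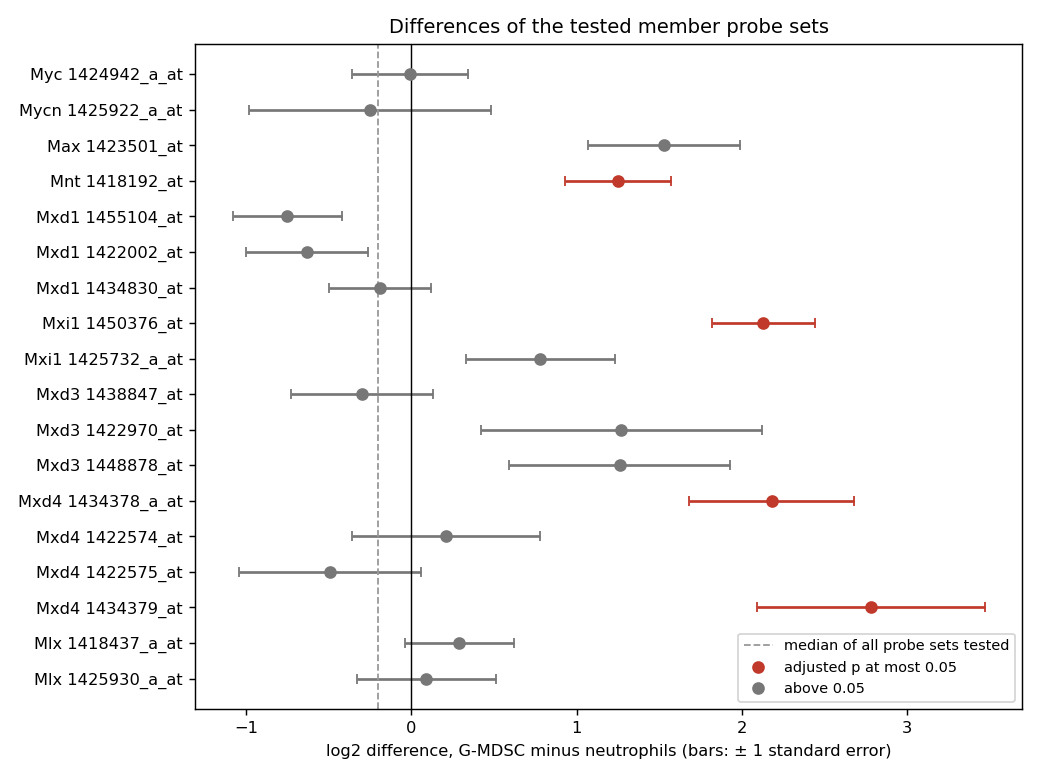
Log2 difference, G-MDSC minus neutrophils, of the 18 tested member probe sets, with bars of 1 standard error; red marks an adjusted p of at most 0.05, and the dashed line the median of all probe sets tested (-0.2). The red points are Mnt (1.25), Mxi1 (2.13) and 2 probe sets of Mxd4 (2.18 and 2.78), and the Myc point is at -0.01.

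Mxd4, an MXD member linked with cells that have stopped dividing, had 4 tested probe sets that disagreed. Those named 1434378_a_at and 1434379_at were higher in G-MDSC: the first read 836 and 870 against 299 and 101, the second 436 and 477 against 128 and 16.7. In both the G-MDSC arrays lay close together, while neutrophils replicate 2 was the lowest array and at or below its own 40th percentile. The differences were 2.18 ± 0.50 (4.52-fold; limma adjusted p = 0.032) and 2.78 ± 0.69 (adjusted p = 0.0417). Without neutrophils replicate 2 they were 1.46 and 1.71 and still called (0.0312 and 0.0214), and without neutrophils replicate 1 they were 2.89 and 3.85. Both calls were lost without G-MDSC replicate 1 (2.2, adjusted p = 0.073, and 2.84, 0.143) or replicate 2 (2.15, 0.0674, and 2.72, 0.158), and with quantile normalization (0.104 and 0.103), that of 1434379_at also with a pseudocount of 1 and with no filter. With median scaling the call of 1434379_at was kept (0.0268) and that of 1434378_a_at lost (0.0603).

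The other Mxd4 probe sets, 1422574_at and 1422575_at, were not called. The first read 108 and 188 in G-MDSC and, in neutrophils, 86.5 and 168 (0.21 ± 0.57), and the second 92.5 and 88.8 against 114 and 157 (-0.49 ± 0.55). The second thus pointed the other way, with no overlap between the groups. The median of the 4 was 1.19.

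Mxd3, the MXD member expressed in dividing cells in S phase, likewise gave probe sets of opposite sign, none of them called. The brightest, 1438847_at, read 195 and 230 in G-MDSC and, in neutrophils, 216 and 324, which overlap (-0.30 ± 0.43, limma adjusted p = 0.711). On 1448878_at the G-MDSC arrays read 193 and 94.1, and both neutrophil arrays (39.6 and 56.3) were at or below their 40th percentile. Set against that percentile, G-MDSC had at least 1.52-fold more Mxd3 signal there, or 1.02-fold with the highest of the 4 percentiles as a common floor (adjusted p = 0.31). On 1422970_at the values were 88.2 and 78.4 against 28.7 and 22.1, again dim in both neutrophil arrays, with no bound above 1 (adjusted p = 0.414).

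Mlx, the partner of MondoA and ChREBP, differed little. Its brighter probe set (1418437_a_at) read 816 and 741 in G-MDSC and, in neutrophils, 608 and 659. The groups did not overlap, yet the difference of 0.29 ± 0.33 was far from the threshold (limma adjusted p = 0.636; 95% interval -0.46 to 1.04). The other (1425930_a_at) read 291 and 350 against 227 and 394, with the neutrophil arrays on either side of both G-MDSC arrays (0.09 ± 0.42, adjusted p = 0.921).

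**Figure D3:**
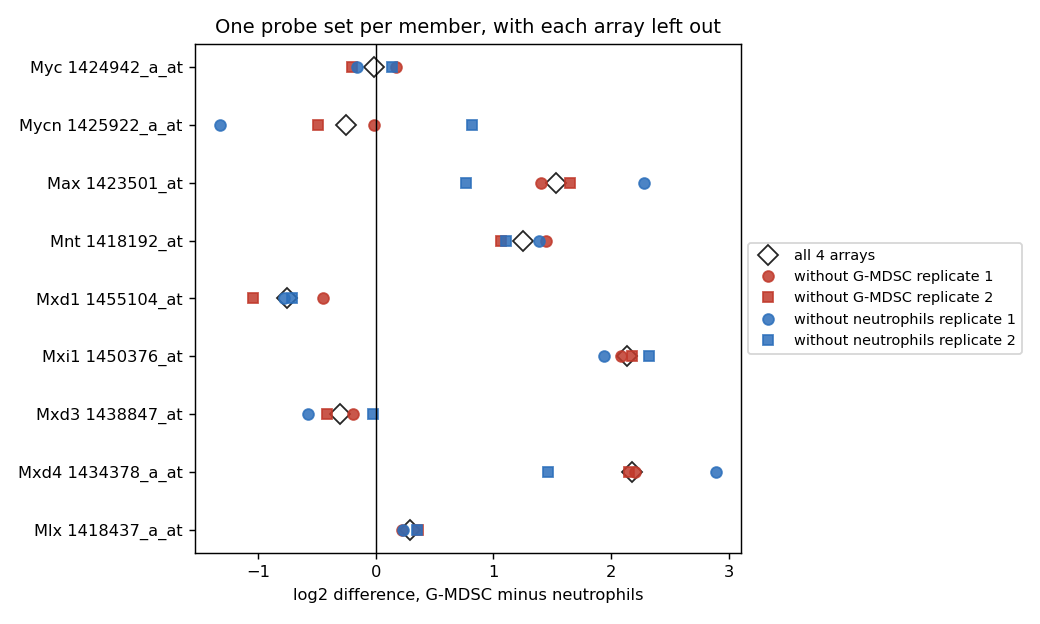
Log2 difference of the brightest tested probe set of each member over all 4 arrays (open diamonds) and with 1 array left out (red, a G-MDSC array; blue, a neutrophil array; circles, replicate 1; squares, replicate 2). Mxi1 stays between 1.94 and 2.32, whereas leaving out a neutrophil array spreads Max from 0.77 to 2.28, Mxd4 from 1.46 to 2.89 and Mycn from -1.32 to 0.82.

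The probe sets whose log2 values, centred on their own mean, lay nearest to those of Myc over the 4 arrays were of Mgrn1, Ankrd37 and Nptn, at root mean square distances of 0.00493, 0.00735 and 0.00841. For Mxd1 (1455104_at) they were of Ppef2, P2ry10 and Uba6, at 0.0398, 0.042 and 0.0463. With 4 arrays and 23402 and 23400 probe sets searched, such near matches describe these arrays alone.

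Among further factors that share partners or E-boxes with the network, 5 of 7 listed had a tested probe set. Higher in G-MDSC were Mga, a large MAX-binding repressor (797 and 769 against 315 and 185; 1.63 ± 0.39, limma adjusted p = 0.0389), and Usf1, an E-box factor (1581 and 1391 against 634 and 340; 1.64 ± 0.38, adjusted p = 0.0351). Lower was Mlxipl, which encodes ChREBP (72.7 and 70.4 against 290 and 322; -1.88 ± 0.47, adjusted p = 0.0457). Mlxip, MondoA, was at 2554 and 2053 against 1168 and 483, without overlap but with an adjusted p of 0.0588. The 4 Mga probe sets ran from 0.01 to 1.94. For comparison, 5.17% of all 13139 genes tested, each by its brightest probe set, were called higher and 5.55% lower (10.7% in either direction). The same shares are the comparison for the gene counts of every list below. All 3 calls were lost without G-MDSC replicate 1 (adjusted p = 0.265 for Mga, 0.166 for Usf1 and 0.31 for Mlxipl) and without G-MDSC replicate 2 (0.199, 0.0847 and 0.271), and those of Mga and Usf1 also without neutrophils replicate 2 (0.0525 and 0.0543). All 3 were lost with quantile normalization (0.095, 0.0819 and 0.0959, in the same order) and with median scaling (0.101, 0.148 and 0.169).

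The SIN3 corepressor, which MXD proteins and MNT recruit, had 3 of 14 tested genes higher in G-MDSC and 0 lower by limma; at an unadjusted p under 0.05 these were 6 and 1, and without moderation 0 and 0. They were Arid4a (2318 and 2524 against 796 and 444; 1.99 ± 0.37), Ing2, a reader of methylated histone H3 (2658 and 3685 against 1002 and 902; 1.70 ± 0.32), and Sin3a, the scaffold (1859 and 1221 against 527 and 498; 1.53 ± 0.35). In the other direction, Hdac2 just missed the threshold (501 and 296 against 1068 and 1082, -1.44 ± 0.37), and its 3 probe sets ran from -1.44 to -1.23. With the 60th percentile filter, with 1 probe set per gene and with the replicate block, 1 gene of the list was lower. The list median was 0.35, against -0.18 over all genes. Without G-MDSC replicate 1 the number higher was 2 and without G-MDSC replicate 2 it was 1, Arid4a alone staying called with each array left out. With median scaling it was 0.

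Of 21 tested genes that modify MYC or act with it, 3 were higher and 2 lower in G-MDSC (list median -0.39). Over all genes 5.17% were called higher and 5.55% lower. The higher ones were Cip2a, which shields MYC from dephosphorylation (541 and 362 against 110 and 126; 1.77 ± 0.43), Mycbp (1.52 ± 0.35) and the mitotic kinase Aurka (1.47 ± 0.36). The lower ones were the kinase Pim2 (305 and 194 against 854 and 791; -1.69 ± 0.38) and Actl6a (-1.66 ± 0.37), whose 3 probe sets ran from -1.66 to 0.37. All 5 calls were lost without either G-MDSC array, the count being 0 in both cases, while 7 were higher and 4 lower without neutrophils replicate 1. With quantile normalization 0 were called.

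Genes that MYC is known to activate were taken as 2 lists. Of 31 tested targets of the nucleolus and ribosome assembly, 13 were called lower and 0 higher by limma (27 and 0 at an unadjusted p under 0.05, and none without moderation), and in all 31 both G-MDSC arrays lay below both neutrophil arrays, where 32.2% of all genes did so (27.3% lay the other way, 59.5% in either direction). Of these, Rrp12 passed the filter through the neutrophil arrays alone, so the filter favoured that direction for it. The median difference of the 31 was -1.39, against -0.18 over all genes. The largest were of Nop16 (82.5 and 112 against 563 and 917; -2.71 ± 0.43), Gar1, a pseudouridylation factor (260 and 127 against 1228 and 1276; -2.68 ± 0.41), and Rcl1, an rRNA-processing factor (80.8 and 140 against 520 and 1036; -2.61 ± 0.48). These 3 stayed called with each array left out. Nucleolin, Ncl, was at 3832 and 2638 against 6470 and 6229 and missed the threshold (-0.99 ± 0.31, adjusted p = 0.0947). The number lower was 6 without G-MDSC replicate 1, 7 without G-MDSC replicate 2, 21 without neutrophils replicate 1, 27 with the replicate block, 8 with quantile normalization and 1 with median scaling, where the list median was -0.83.

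Of 34 tested targets of growth and metabolism, 11 were lower and 1 higher in G-MDSC, 22 were not called, and the list median was -0.91. Lower were Ccnd2, cyclin D2 (576 and 710 against 8707 and 3534; -3.09 ± 0.43, limma adjusted p = 0.00473), Nme1, a nucleoside diphosphate kinase (715 and 488 against 2714 and 3930; -2.44 ± 0.35), and Srm, spermidine synthase (398 and 283 against 1598 and 2170; -2.42 ± 0.36). These 3 calls held with each array left out. Odc1, the ornithine decarboxylase long known as a MYC target, was at 1777 and 2166 against 4685 and 8480 (-1.68 ± 0.36), and Cdk4 at 245 and 274 against 760 and 1323 (-1.89 ± 0.39). Both of those calls were lost without G-MDSC replicate 1 (adjusted p = 0.0733 and 0.0696), that of Cdk4 also with quantile normalization (0.0632), and both were read on probe sets of the _x_at type, which can match more than 1 transcript. The higher gene was Mcm4 of the replicative helicase (1.58 ± 0.37), lost when G-MDSC replicate 1 (adjusted p = 0.28) or neutrophils replicate 2 (0.0567) was left out. The number lower was 6 and 7 without G-MDSC replicates 1 and 2, 18 without neutrophils replicate 1, 17 with the replicate block and 0 with median scaling.

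The E-box was in the promoter windows of 7 of 26 nucleolar targets (26.9%) and 8 of 28 growth targets (28.6%), against 11.2% of all tested genes with a window and 0 of 21 cell cycle genes. Of the 8 growth targets, Nme1, Cdk4 and Hspd1 were called lower in G-MDSC, and Ldha, Eif4e, Eif4a1, Eif5a and Paics were not called. Nme1 and Cdk4 are shown as examples, Nme1 by 1 of its windows and Cdk4 by a stretch with 2 of the 4 E-boxes of its window (RefSeq, GRCm38.p6, CACGTG in capitals).
Nme1, chr11:93968026-93968175, minus strand: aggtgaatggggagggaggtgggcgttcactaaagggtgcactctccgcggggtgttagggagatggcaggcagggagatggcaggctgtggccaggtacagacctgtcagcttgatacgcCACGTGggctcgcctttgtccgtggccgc
Cdk4, chr10:127063288-127063437, plus strand: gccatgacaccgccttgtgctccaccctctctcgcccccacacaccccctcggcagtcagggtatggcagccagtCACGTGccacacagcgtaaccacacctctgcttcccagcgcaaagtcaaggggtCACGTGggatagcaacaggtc
These shares describe the lists and were not tested.

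Of 11 tested genes that MYC is known to repress, 1 was higher and 1 lower in G-MDSC (list median -0.53), where 5.17% and 5.55% of all genes were. Both called genes encode cyclin-dependent kinase inhibitors. Cdkn1b, p27, was at 7870 and 7019 in G-MDSC and, in neutrophils, 2894 and 1424 (1.86 ± 0.38, limma adjusted p = 0.0209), and Cdkn1a, p21, at 1289 and 2081 against 6783 and 7876 (-2.15 ± 0.34, adjusted p = 0.00736). The pair thus differed in opposite directions, and both calls held with each array left out but not with median scaling. Without neutrophils replicate 1 the number lower was 3. Cebpa, a granulocyte fate factor, was at 669 and 776 against 847 and 919 (-0.29 ± 0.33, adjusted p = 0.638).

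Of 9 tested targets of the MLX partners, limma called 0 in either direction, with 2 higher and 0 lower at an unadjusted p under 0.05 and 2 higher when 1 probe set per gene was tested. Leaving out G-MDSC replicate 1 or neutrophils replicate 1 gave 1 higher, and leaving out neutrophils replicate 2 gave 1 higher and 2 lower. Txnip, the most direct readout of MondoA, was at 13789 and 14747 in G-MDSC and, in neutrophils, 8847 and 2916 (1.49 ± 0.48, adjusted p = 0.0988). It was 0.69 without neutrophils replicate 2 and was called without neutrophils replicate 1 (2.28, adjusted p = 0.0009). Acly, a lipid synthesis enzyme, was at 5397 and 4929 against 4823 and 2965 (0.45 ± 0.33).

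**Figure D4:**
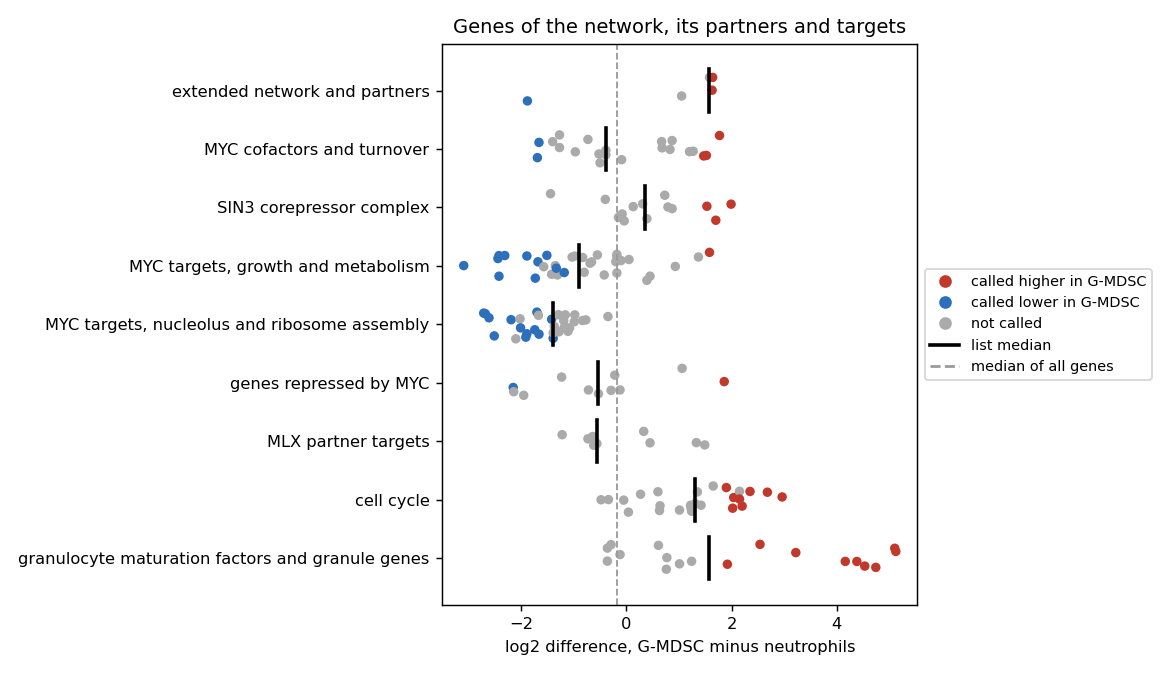
Log2 difference, G-MDSC minus neutrophils, of each tested gene of the lists by its brightest probe set, red where called higher in G-MDSC, blue where called lower and grey where not called; vertical spread has no meaning. Black bars are list medians and the dashed line is the median of all genes (-0.18). All 31 nucleolar targets lie left of 0, while 22 of 25 cell cycle genes lie right of it.

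Of 25 cell cycle genes tested, limma called 8 higher and 0 lower in G-MDSC (14 and 0 at an unadjusted p under 0.05, none without moderation), with a median of 1.31. They included E2f2 (2977 and 2829 against 707 and 439; 2.35 ± 0.35, adjusted p = 0.00592) and Ube2c, which drives mitotic exit (2878 and 1080 against 222 and 308; 2.68 ± 0.48). Tk1, thymidine kinase, read 353 and 212 in G-MDSC, with neutrophils at 16.2 and 27, at or below their 40th percentile, and so at least 2.90-fold higher, or 1.95-fold with the common floor (adjusted p = 0.0265). Leaving out G-MDSC replicate 1 or 2 ended the Tk1 call (adjusted p = 0.561 and 0.268) and that of Ube2c without G-MDSC replicate 1 (0.0773). The number higher was 1 without G-MDSC replicate 1, 4 with quantile normalization, 5 with no filter and 14 with the replicate block.

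Of 18 tested maturation factors and granule genes, 9 were higher and 0 lower by limma (13 and 0 at an unadjusted p under 0.05, none without moderation), led by Mpo (5.12 ± 0.41), Camp (5.10 ± 0.38) and Elane (4.74 ± 0.48), and the median was 1.58. Among the granule genes not called were Lcn2 (-0.12 ± 0.33, adjusted p = 0.848), Mmp8 (0.77 ± 0.32, 0.196) and Mmp9 (1.01 ± 0.36, 0.13), named after their values were seen. The count was 9 to 11 with an array left out. Without the intensity trend 3 of these granule genes were called, and 0 genes of the lists above in either direction.

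Markers of other cells moved with the groups. Granulocyte markers were present in both, and of 10 tested 3 were called higher in G-MDSC and 0 lower. The 3, Ltf, Camp and Ngp, were already counted among the granule genes above. S100a8, S100a9 and Itgam, which that list lacks, were not called (-0.31, -0.45 and -0.08). Summed signals of the granulocyte markers were 277422 and 328328 in G-MDSC and, in neutrophils, 189922 and 222986. Csf3r, the G-CSF receptor, was not called, at 19174 and 27611 in G-MDSC and, in neutrophils, 14881 and 15292. Macrophage markers were lower in G-MDSC for 9 of 13 tested, with summed signals of 17628 and 17920 in G-MDSC and, in neutrophils, 43735 and 63762, and so were 5 of 6 monocyte, 4 of 8 dendritic cell and 5 of 8 mast cell markers. Summed signals of these 3 lists were 6103 and 6628 against 26380 and 30790, 19917 and 20931 against 43705 and 58080, and 18086 and 21704 against 40480 and 30340. Of the T cell markers that EL4 cells could carry, 1 of 8 was called, lower in G-MDSC, with sums of 854 and 611 against 1150 and 1413, and Cd4 was at or below the 40th percentile on all 4 arrays. Of the B and plasma cell markers 1 of 8, Jchain, was called, higher in G-MDSC (sums 16843 and 12596 against 8046 and 10569), and of 6 erythroid and 2 mesothelial or stromal markers 0 were called, at an unadjusted p under 0.05 as well. The erythroid sums were 741 and 760 against 436 and 1346 and the stromal sums 173 and 218 against 163 and 771, with Msln, Wt1, Upk3b and Krt19 at or below the 40th percentile throughout. The part of these cells in the differences of Mxi1, Mxd4, Mnt, the MYC targets and the cell cycle genes was not tested.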

How the data were processed

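Signal intensities of 4 arrays were used as deposited by the authors, and the submitters' processing notes name GCOS 1.4 and MAS5; other settings are not given in the sources used here, and detection calls were not used here. Intensities are on a linear scale. Of 45101 probe sets, 64 are controls, 34945 have 1 gene symbol, 932 several and 9160 none; 34741 matched RefSeq by gene ID. Values were taken as log2(signal + 16), which understates changes of dim probe sets. Probe sets above the 40th percentile on at least 2 of 4 arrays were tested with limma 3.58.1 in R 4.3.3 (lmFit, eBayes with intensity trend, two-sided), adjusted by Benjamini-Hochberg over 28754 probe sets. A gene was read on its brightest tested probe set. No exact permutation test was used, since 2 arrays per group allow no p under 0.33; precision is limited by the number of arrays. Tables and plots used Python 3.11.15, pandas 2.3.3, numpy 2.4.6 and matplotlib 3.10.9. The fit was also run on simulated arrays with less noise than these and the same noise for every probe set. That run does not measure how the fit performs on these arrays.

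Members and gene lists were chosen with earlier results of these data known, so their directions are not independent evidence. Named were all members, from each list at most 3 called genes in either direction, by size (the 2 brightest where none was called), and Odc1, Ncl, Cdk4, Ccnd2, Cdkn1a, Txnip, Cebpa and Cebpe, the last without a tested probe set of its own. Mlxip, Hdac2, Rrp12 and the E-box targets other than Nme1 and Cdk4 were named after their values were seen. So were the cell markers named other than Camp, the absent ones included. The alternatives were other pseudocounts (1 and 64), filters, scalings, variance models, 1 probe set per gene, a floor for low signals, a block on replicate number, and each array left out in turn.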

Additional observations from a re-analysis of the deposited data

How the results depend on the processing

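Over all 28754 probe sets, 1071 were called higher and 1238 lower in G-MDSC. These became 640 and 802 with quantile normalization, 423 and 313 with median scaling, 41 and 185 without the intensity trend, and 0 and 0 without moderation (4212 at an unadjusted p under 0.05). With the replicate block they were 2799 and 2753, with the replicate block on quantile-normalized values 3205 and 2590, and 1607 were higher with the floor for low signals. Leaving out 1 array gave 470 to 3302 higher and 791 to 4591 lower. Of member probe sets, 4 were higher and 0 lower; this became 1 higher with quantile normalization and with median scaling, 0 without the trend and without moderation, 7 higher and 2 lower with quantile normalization and the replicate block, and 1 to 5 higher with an array left out. The same-numbered arrays share only a number: their deviations from the group means correlated at 0.296 over probe sets, and 5 member probe sets were higher with the replicate block, Max being the one gained. Signs turned only for probe sets that were not called. With median scaling Myc was 0.55, Mycn 1425922_a_at 0.31, Mxd1 1434830_at 0.36, Mxd3 1438847_at 0.26 and Mxd4 1422575_at 0.07; with quantile normalization, with or without the block, Mycn was 0.05 and Mxd4 1422575_at 0.1. The median of probe sets put Mxd3 at 1.26, but 1422970_at and 1448878_at had passed the filter through the G-MDSC arrays alone. With an array left out Myc ran from -0.2 to 0.17, Mycn from -1.32 to 0.82, Mxd1 1434830_at from -0.44 to 0.05, Mxd4 1422574_at from -0.21 to 0.64 and Mlx 1425930_a_at from -0.29 to 0.46. The causes were not tested. Signals near the low end of an array limit Mycn, Mxd3 and the dimmer Mxd4 probe sets.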
